A study of Arabidopsis thaliana with 15 samples.

Results

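Photosynthesis genes of the nucleus were described in bulk RNA-seq of Arabidopsis thaliana roots. The 46 loci were taken from a written list of light-harvesting, photosystem, electron transport and Rubisco genes by their known function, drawn up with earlier results of these data known. The table of counts holds rows for 45 of them among 24618 genes, and LHB1B2 (AT2G34420) was not analysed here. The members were grouped by role into 4 antenna genes of photosystem I, 9 genes of the main antenna of photosystem II (LHCII), 5 genes of its minor antenna, 5 Rubisco genes, 10 photosystem I subunits, 9 photosystem II subunits and 4 electron transport genes.

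The 15 libraries form 5 groups of 3 replicates (A, B and C) of the wild type Col-0: mock, 150 mM salt, flg22, mannitol control and 300 mM mannitol. flg22 is a peptide of bacterial flagellin that plants perceive, and mannitol lowers the water potential of the medium without sodium. The flg22 dose is 250 nM in the labels and 1 μM in the methods. The methods describe roots of 6-day-old seedlings, pooled in each sample and harvested 3 hours after treatment, and treatments for imaging with salt and flg22 in liquid medium and mannitol on plates. Mock therefore served as control for salt and flg22, and the mannitol control for mannitol. The labels do not say whether replicates were grown separately, so p-values measure only the spread between these samples.

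Most photosynthesis proteins of plants are encoded in the nucleus and imported into the plastid. Antenna proteins bind chlorophyll and pass light energy to the photosystems, which drive electrons from water through the cytochrome b6f complex and plastocyanin to ferredoxin and NADP, and Rubisco fixes carbon dioxide in the stroma. In leaves, transcripts of the Rubisco small subunit and of Lhcb1, the main LHCII protein, are among the most abundant of all. Roots in soil hold non-photosynthetic plastids, and roots grown in light can form some chloroplasts.

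Several members are near copies of each other, which limits how well reads can be assigned. The first 90 bases of the coding sequence are shown for 2 sets of members that differed in level between groups. The Lhcb1 genes CAB1, CAB2 and CAB3 lie side by side on chromosome 1 of the TAIR10.1 assembly. The Rubisco small subunit genes RBCS1B and RBCS2B are neighbours on chromosome 5. This stretch was chosen because no other 90 bases hold more differing positions. It holds 9 of the 47 in the coding sequence of the Lhcb1 genes and 5 of the 15 in the Rubisco genes. Capitals mark the bases that differ among the copies shown.
CAB1: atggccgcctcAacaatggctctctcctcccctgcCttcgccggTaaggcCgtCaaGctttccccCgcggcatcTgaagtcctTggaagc
CAB2: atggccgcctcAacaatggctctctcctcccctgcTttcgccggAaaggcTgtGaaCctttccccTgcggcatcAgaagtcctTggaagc
CAB3: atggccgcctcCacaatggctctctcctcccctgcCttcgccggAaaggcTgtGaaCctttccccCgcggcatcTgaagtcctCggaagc
RBCS1B: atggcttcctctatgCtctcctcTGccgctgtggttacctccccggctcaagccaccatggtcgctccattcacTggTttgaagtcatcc
RBCS2B: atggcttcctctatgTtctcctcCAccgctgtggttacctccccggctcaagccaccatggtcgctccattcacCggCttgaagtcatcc
Over the whole coding sequence of 804 bases, pairs of CAB1, CAB2 and CAB3 were 95.6% to 96.4% identical, and RBCS1B and RBCS2B were 97.3% identical over 546 bases. Few windows of 100 bases were shared exactly with another gene, 4.4% in CAB2, 1.5% in CAB3, 4.1% in CAB1, 7.5% in RBCS1B (with RBCS3B) and none in RBCS2B. The share was 12.4% in LHCB2.2, 12.1% in RBCS3B and 9.9% in LHCB2.1. A read that lies wholly within shared sequence cannot be assigned to 1 gene. The paired reads were longer than these windows and can reach past them, so the shares are only a guide. Genes that overlap a neighbour are uncertain as well, since the libraries were not stranded: 55.8% of windows in PSAG, 36.3% in LHCB2.3, 24.0% in PSAE-1 and 12.4% in PSAH2 were shared with another annotated gene.

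Photosynthesis transcripts were scarce in all 15 libraries. The 45 members together took between 0.0237% and 0.0857% of the counts of a library, with total counts of 6094503 to 13943645. The lowest share was that of salt C, with a 95% Wilson interval of 0.0227% to 0.0248%, and the highest that of flg22 A, with an interval of 0.0836% to 0.0878%. These intervals cover counting error only. Per library, 40 to 45 of the members had a count, and a level of 3 counts corresponded to 0.215 to 0.492 CPM, the count scaled to a library total of 1e6.

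**Figure D1:**
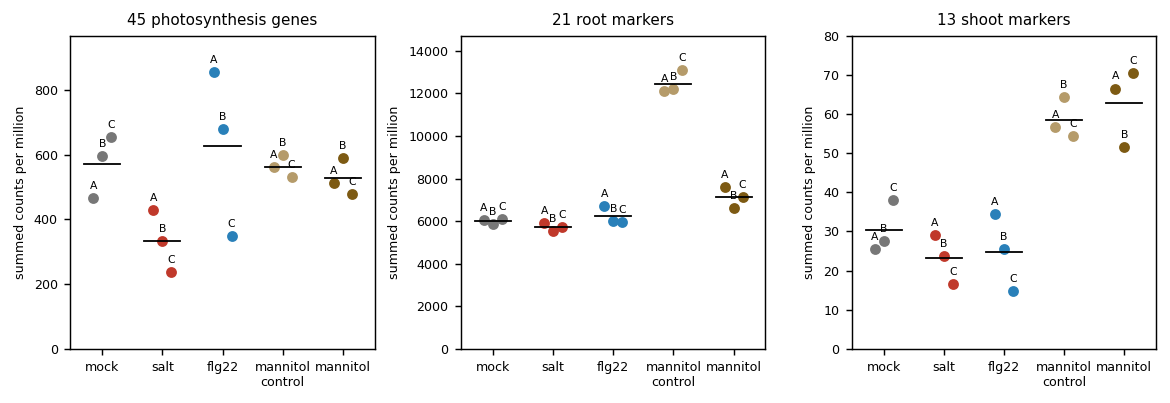
Summed CPM (of all counts of a library) of 45 photosynthesis genes, 21 root markers and 13 shoot markers, with a point for each library (A, B, C) and a line at the group mean. The 3 salt libraries lie below the 3 mock libraries in the left panel, flg22 A and C lie far apart, and root markers exceed shoot markers in every library.

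The labels give whole seedlings as the tissue and the methods give roots. In every library the sum of 21 root markers was far above that of 13 shoot markers with a row, at 5520 to 13100 CPM against 14.7 to 70.6 CPM. The root sum was carried by PYK10, a root glucosidase of endoplasmic reticulum bodies, with a mean of 3870 CPM in mock and 11000 CPM in the mannitol control, but 20 of the 21 root markers had counts in all 15 libraries. Of the shoot markers, 9 of 13 stayed under 10 counts in every library, among them the stomatal lineage genes SPCH, FMA, TMM and EPF1 and the leaf polarity genes AFO and YAB3. The shoot markers CER1, KNAT1 and PDF1 had counts in all 15 libraries, with up to 271, 177 and 630 counts. No member lay among the top 1% of genes by length-scaled level in any group, and 1 member in each group lay in the top 10%. These levels go against the label of whole seedlings, and the samples are called roots below, with some shoot marker transcript present.

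Levels of different genes were compared as CPM per kilobase of exon, scaled by TMM (trimmed mean of M-values) factors over all libraries. The median of the 45 members was 5.53 in mock, 3.30 in salt, 7.16 in flg22, 6.97 in the mannitol control and 4.36 in mannitol, beside a median gene of 5.96 to 6.22 in the same groups. Photosynthesis genes were thus spread around the median gene of the root, with 21 of 45 above it in mock and 13 of 45 in salt. The distribution was wide: PSBR (AT1G79040), a small subunit near the oxygen-evolving complex, had the highest mean over all libraries at 82.3 CPM per kb, and PSAG (AT1G55670), which links the core of photosystem I to its antenna, had the lowest at 0.346.

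PSBR was the highest member in each group, with 68.9 ± 11.1 CPM per kb (SD, n = 3) in mock, 56.0 ± 12.7 in salt, 78.3 ± 14.3 in flg22, 107 ± 3.90 in the mannitol control and 101 ± 16.0 in mannitol. The next in order of the mean over all libraries were PSBO1 (25.1), a subunit of the oxygen-evolving complex, LHCA4 (24.7), CAB1 (22.5), Rubisco activase RCA (22.5), LHCB4.1 (21.8), RBCS1A (20.8), PSBX (20.6) and PSAK (19.7). The order changed with the group. In mock CAB1 came after PSBR at 34.1 ± 13.4, within the spread of RBCS1A at 26.6 ± 5.94, LHCA4 at 24.6 ± 2.82 and PSBO1 at 24.5 ± 4.97, while LHCB4.1 was lower at 14.8 ± 1.14 (SD, n = 3). In mannitol LHCB4.1 came after PSBR at 40.6 ± 5.55, above LHCA4 at 30.2 ± 2.97, and CAB1 stood at 13.7 ± 2.65. In salt RBCS1A stood at 6.54 ± 5.44, below LHCA4 at 22.7 ± 4.63. The lowest members were PSAG, LHCB2.3, the plastocyanin PETE1, PSAH2, PSAE-1 and RBCS1B, each under 1 CPM per kb on average.

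Root-type redox partners were measured beside their leaf-type counterparts. In mock, the root-type ferredoxin FD3 stood at 217 ± 28.3 CPM per kb, and the root-type ferredoxin-NADP reductases RFNR2 and RFNR1 at 79.2 ± 16.9 and 27.0 ± 2.56 (SD, n = 3). The leaf-type reductase FNR1 (AT5G66190) stood at 4.36 ± 0.613 in the same libraries and at 10.6 ± 1.22 in the mannitol control, on the same length-scaled level. The leaf-type ferredoxins were nearer to FD3: FED A and FD1 stood at 43.5 ± 6.65 and 36.9 ± 5.42 in mock, and FD1 at 140 ± 10.2 in the mannitol control against 260 ± 11.2 for FD3. The reductases run between NADPH and ferredoxin, in leaves toward NADPH and in roots toward reduced ferredoxin for nitrite reduction.

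**Figure D2:**
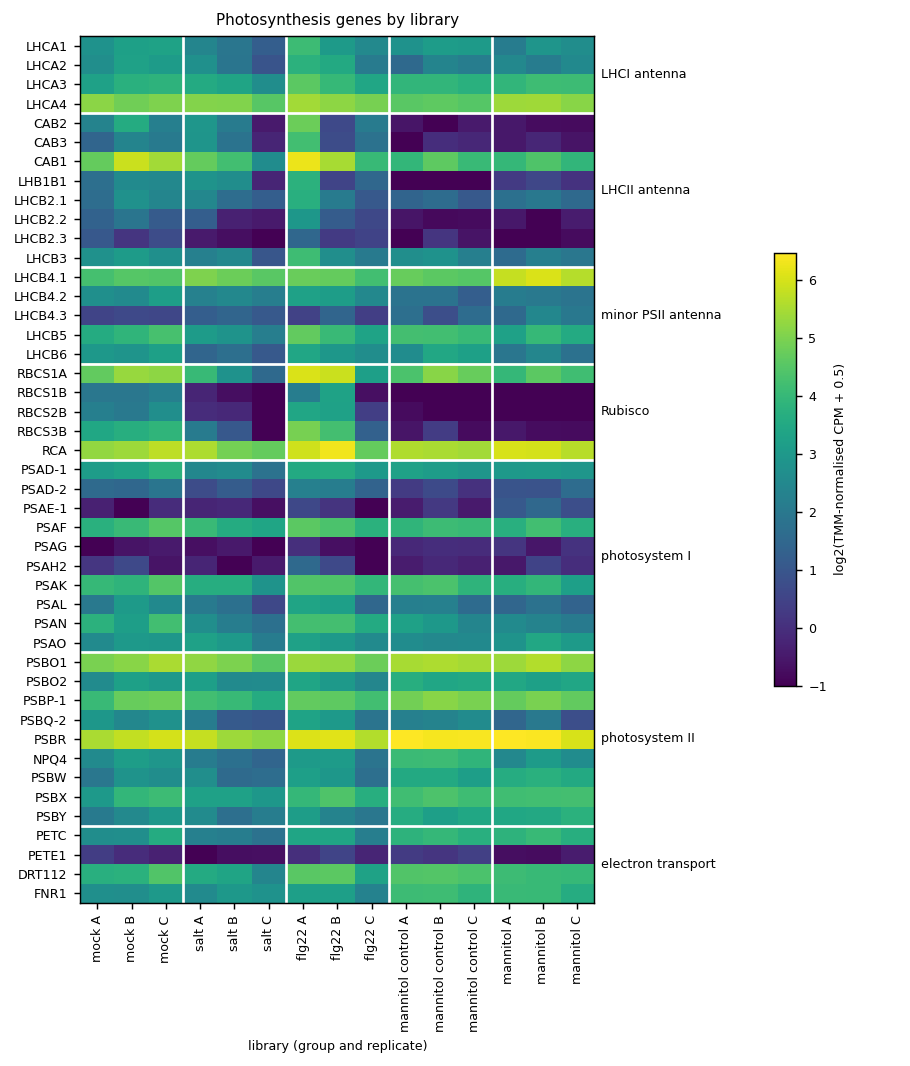
Level of each of 45 photosynthesis genes (rows, ordered by role) in each of 15 libraries (columns), coloured by log2 of TMM-normalised CPM plus 0.5. Dark blocks mark CAB2, CAB3, LHB1B1, LHCB2.2 and the B-type Rubisco small subunit genes in both groups of the mannitol experiment, and salt C and flg22 C are darker than their replicates.

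Replicates differed more for the members than for other genes. Among genes with a group mean of at least 10 counts, the ratio of the highest to the lowest library (CPM plus 0.1) had a median of 2.53 over 41 members in flg22, of 1.92 over 37 in salt and of 1.58 over 39 in mock. All genes had medians of 1.20, 1.24 and 1.22 in these groups. In the mannitol control and in mannitol the members' medians were 1.27 and 1.38, beside 1.16 and 1.22 for all genes. Members and all genes were not matched for level, and sampling of low counts widens this ratio. The differences ran through the whole set: 33 of the 41 members in flg22 and 28 of the 37 in salt were highest in replicate A, and none was highest in replicate C.

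The members rose and fell together from library to library. After centring log2(CPM + 0.5) within each group, 99.1% of the 780 pairs among 40 members were positively correlated over the 15 libraries, with a median r of 0.65. Within roles the median r was 0.87 for Rubisco genes, 0.80 for electron transport, 0.76 for LHCII, 0.74 for the photosystem I antenna, 0.72 for photosystem II, 0.69 for photosystem I and 0.43 for the minor antenna. These points share library depth and composition and are a description only. The same values were not computed for other genes, so whether this is particular to the members cannot be told. In salt and flg22 the summed shoot markers were likewise highest in A and lowest in C, at 29.0, 23.8 and 16.5 CPM in salt A, B and C and 34.4, 25.4 and 14.7 CPM in flg22 A, B and C. Shoot markers and the members' share were both highest in C in mock and in B in the mannitol control. Mannitol went the other way: the members' share was highest in B (0.0591%), where the shoot markers were lowest (66.6, 51.6 and 70.6 CPM in A, B and C). Their part in the members' values was not tested, and in pooled roots fewer cells with transcript and less transcript per cell cannot be told apart.

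Rubisco small subunit genes were lower in salt, with some genes of the antennae, photosystems and electron transport. Against mock, 13 of the 40 members tested were lower and 2 were higher at an adjusted p under 0.05 (edgeR's quasi-likelihood F-test, Benjamini-Hochberg over the 18484 genes tested). All 4 Rubisco small subunit genes were among the lower genes, with LHCB6 and LHCB5 of the minor antenna, LHCA1 of the photosystem I antenna, 3 photosystem I subunits, 2 photosystem II subunits and the Rieske protein PETC. Over all genes 19.4% were lower and 22.5% higher. The median log2 fold change of the members was -0.75, beside -0.01 for all genes tested. Of the members' values 36 of 40 were negative, beside 9452 of 18484 for all genes. Among changes of 1 or more on the log2 scale, 12 members were lower and none higher, against 7.84% and 9.59% of all genes.

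The Rubisco small subunit carried the widest change in salt. Levels of single genes are given as TMM-normalised CPM. RBCS1B (AT5G38430) stood at 3.42, 3.39 and 4.13 CPM in mock A, B and C and at 0.346, 0.104 and 0 CPM in salt A, B and C. In counts these are 22, 22 and 53 against 3, 1 and 0, so the groups do not overlap and salt is near the limit of detection. The pooled counts of 97 in mock and 4 in salt give a 27.8-fold lower share, with an exact 95% counting interval of 10.5 to 104, and the fitted log2 fold change was -4.48 ± 0.55 (SE, adjusted p = 0.000155). RBCS2B (AT5G38420) went from 4.20, 3.54 and 6.0 CPM to 0.461, 0.415 and 0 CPM, a log2 fold change of -3.89 ± 0.54 (SE, adjusted p = 0.00034) and an 18.2-fold lower pooled share with an interval of 8.96 to 43.1. Both calls held in all 12 alternatives for each gene. Both genes had under 10 counts in every salt library and passed the count filter through mock. The alternative filter of at least 10 counts in every library leaves them out.

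The other small subunit genes were higher in mock, and whether they fell less was not tested. RBCS3B (AT5G38410) stood at 10.4, 12.3 and 14.2 CPM in mock and at 3.80, 1.56 and 0 CPM in salt, a log2 fold change of -2.75 ± 0.73 (SE, adjusted p = 0.0262). RBCS1A (AT1G67090), the main small subunit gene of leaves, stood at 25.2, 39.6 and 36.3 CPM in mock and at 15.9, 6.53 and 2.45 CPM in salt, a log2 fold change of -1.99 ± 0.59 (SE, adjusted p = 0.0434). In both genes every salt library was below every mock library, with salt C lowest, as in the members' sum. The RBCS3B call was lost in 6 of 12 alternatives, with an adjusted p up to 0.105 under DESeq2, among them those without mock A, mock C or salt B (adjusted p = 0.0521, 0.0705 and 0.0966) and the RBCS1A call in 6 of 13, among them those without mock A, mock B, mock C or salt B (0.0577, 0.0824, 0.0778 and 0.127). RCA, the activase that frees the active site of Rubisco, was measured at 37.7, 40.8 and 52.1 CPM in mock and 46.5, 29.4 and 25.4 CPM in salt, with overlapping groups and a log2 fold change of -0.34 ± 0.25 (SE, adjusted p = 0.307). Without salt A its adjusted p was 0.0115.

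**Figure D3:**
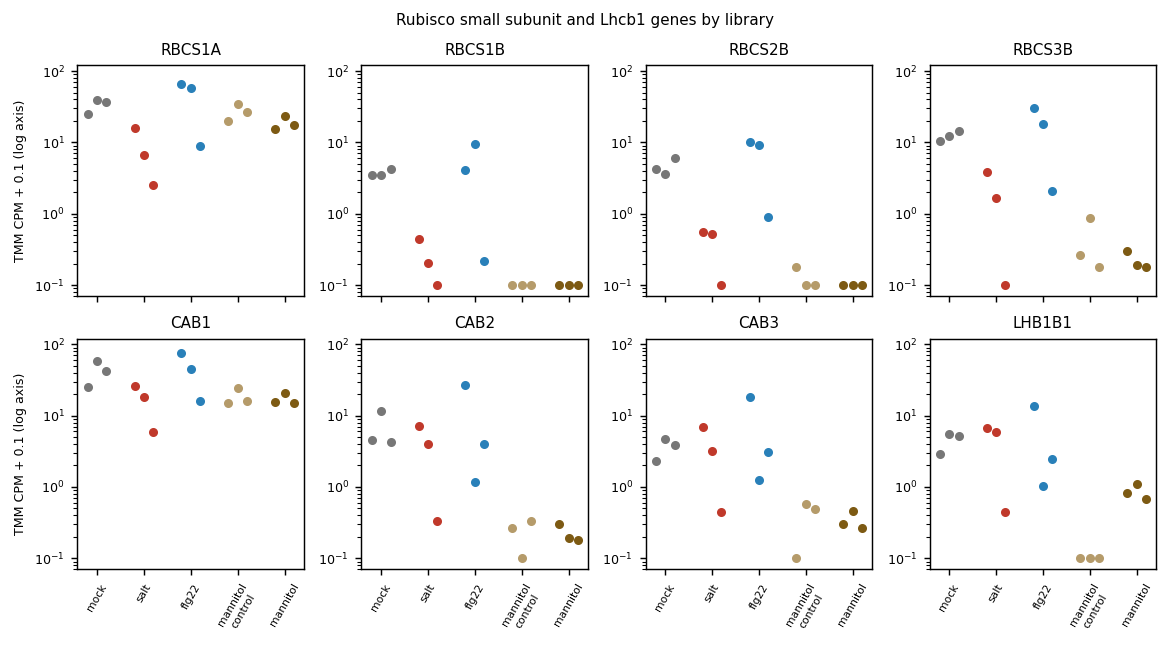
TMM-normalised CPM plus 0.1 on a log axis for 4 Rubisco small subunit genes (upper row) and 4 Lhcb1 genes (lower row), with a point for each library. RBCS1B and RBCS2B lie near the bottom of the axis in salt and at or near 0 CPM in both groups of the mannitol experiment, while RBCS1A and CAB1 are measured in every library.

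Antenna genes had median log2 fold changes of -0.78 for LHCII, -0.73 for the photosystem I antenna and -0.56 for the minor antenna in salt. None of the 7 LHCII genes tested passed, with a median biological coefficient of variation of 48.9%. CAB1 stood at 25.4, 58.2 and 42.3 CPM in mock and at 25.5, 17.9 and 5.71 CPM in salt, with a log2 fold change of -1.32 ± 0.57 (SE, adjusted p = 0.12). In the minor antenna, 4 of 5 genes passed in opposite directions. LHCB6 (AT1G15820), the protein CP24, fell from 7.47, 6.78 and 9.04 CPM to 2.19, 2.80 and 1.63 CPM, by 1.78 ± 0.25 on the log2 scale (SE, adjusted p = 0.000394), and LHCB5, the protein CP26, fell by 1.24 ± 0.27 (adjusted p = 0.00609). LHCB4.1 (AT5G01530), a gene for CP29, rose from 18.8, 21.9 and 21.1 CPM to 32.2, 26.9 and 23.0 CPM, a log2 fold change of 0.44 ± 0.15 (SE, adjusted p = 0.0383). LHCB4.3 (AT2G40100), a further CP29-type gene, rose from 0.934, 1.08 and 1.01 CPM to 1.84, 2.18 and 1.63 CPM, a log2 fold change of 0.93 ± 0.33 (SE, adjusted p = 0.0479). In all 4 genes the groups do not overlap.

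The increases are the less certain calls. LHCB4.1 lost its call in salt in 7 of 13 alternatives, among them DESeq2, upper-quartile normalization and those without mock A, mock C, salt A or salt B (adjusted p = 0.0643, 0.12, 0.123, 0.0991, 0.168 and 0.0964). LHCB4.3 lost it in 11 of 12 alternatives, including each library left out in turn (adjusted p of 0.0547 to 0.183). LHCB4.3 had 6, 7 and 13 counts in mock and 16, 21 and 14 in salt, and passed the count filter through salt. In the photosystem I antenna, LHCA1 fell by 1.30 ± 0.31 on the log2 scale (SE, adjusted p = 0.00774), while LHCA4 was measured at 35.5, 28.2 and 31.9 CPM in mock and 33.1, 32.7 and 22.5 CPM in salt, with a log2 fold change of -0.08 ± 0.17 (SE, adjusted p = 0.736).

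In photosystem I, 3 of 7 genes tested were lower in salt. PSAN, a lumenal subunit on the plastocyanin side, fell by 1.63 ± 0.33 on the log2 scale (SE, adjusted p = 0.00493), and PSAD-1 and PSAD-2, copies of the ferredoxin docking subunit, fell by 1.17 ± 0.27 and 0.99 ± 0.33 (SE, adjusted p = 0.00647 and 0.0347). PSAK stood at 15.4, 13.9 and 21.4 CPM in mock and at 12, 12 and 6.64 CPM in salt, with groups apart and a log2 fold change of -0.71 ± 0.26 (SE, adjusted p = 0.0564). The PSAK value passed in 6 of 13 alternatives, with an adjusted p down to 0.0188.

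In photosystem II, 2 of 9 genes (22.2%) were lower in salt, near the 19.4% of all genes. PSBQ-2, an extrinsic subunit of the oxygen-evolving complex, fell by 1.35 ± 0.36 on the log2 scale (SE, adjusted p = 0.0134). NPQ4, the PsbS protein that triggers the release of excess light energy as heat, fell by 1.18 ± 0.27 (adjusted p = 0.00646). PSBR, the highest member, was measured at 45.1, 54.4 and 62.6 CPM in mock and 55.1, 40.9 and 35.9 CPM in salt, with a log2 fold change of -0.27 ± 0.18 (SE, adjusted p = 0.271), and at 0.0317 without salt A. Of the electron transport genes, PETC, the Rieske iron-sulfur protein of cytochrome b6f, fell by 1.07 ± 0.31 (SE, adjusted p = 0.0198). The plastocyanin DRT112 stood at 12.6, 13.1 and 21.1 CPM in mock and at 11.4, 9.75 and 4.78 CPM in salt (log2 fold change -0.84 ± 0.34, adjusted p = 0.0873), and FNR1 had a log2 fold change of -0.01 ± 0.20.

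As a share of all counts, the members took 0.0573% ± 0.00964 in mock and 0.0333% ± 0.00957 in salt (SD, n = 3), a ratio of 0.581. The 3 salt libraries, at 0.0237% to 0.0429%, lie below the 3 mock libraries, at 0.0467% to 0.0655%. Upper-quartile normalization moved the median of all genes in this comparison to -0.16 and called 28.8% of genes lower and 17.1% higher, and 21 members lower and none higher. The summed shoot markers were 25.6 to 38.1 CPM in mock and 16.5 to 29.0 CPM in salt. Among them the leaf carbonic anhydrase CA1, singled out after its values were seen, stood at 4.05, 2.62 and 7.87 CPM in mock and at 3.11, 1.14 and 0 CPM in salt, while the epidermal wax gene CER1 rose from 2.95 ± 0.85 to 5.83 ± 1.52 CPM (SD, n = 3, adjusted p = 0.021). The part of these markers in the members' values was not tested.

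Other genes of the pathway went both ways in salt. Their lists together had 30.9% of 55 genes tested lower and 18.2% higher, beside 19.4% and 22.5% of all genes. In the Calvin-Benson cycle 7 of 14 genes tested were lower and 1 higher, with a median log2 fold change of -0.98. GAPA-2, a glyceraldehyde-3-phosphate dehydrogenase subunit of the plastid, stood at 0.955 ± 0.339 CPM in salt and 4.09 ± 0.708 CPM in mock (log2 fold change -2.06, adjusted p = 0.000953), and phosphoribulokinase PRK at 0.192 ± 0.332 and 2.28 ± 0.646 CPM (SD, n = 3, log2 fold change -3.52, adjusted p = 0.00552). In photorespiration 4 of 8 were lower and 1 higher: the glycolate oxidase gene GOX2 had a log2 fold change of -2.79 ± 0.29 (SE, adjusted p = 0.000235), and GLDP1, a subunit of glycine decarboxylase, rose from 108 ± 5.04 to 308 ± 31.4 CPM (SD, n = 3, adjusted p = 4.59e-06).

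Further thylakoid genes went both ways, 3 of 11 higher and 3 lower (27.3% each). The ferredoxin gene FD1 stood at 58.6 ± 3.43 CPM in salt and 31.5 ± 4.63 CPM in mock (SD, n = 3, adjusted p = 0.000268). In chlorophyll synthesis 2 of 11 were higher, with HEMA1, the first enzyme of the pathway, at a log2 fold change of 0.77 ± 0.17 (SE, adjusted p = 0.00708), and 2 were lower, with CHLM at -1.42 ± 0.17 (adjusted p = 0.000159). These are 18.2% each way, below the shares of all genes. Of the regulators 3 of 8 were higher, the plastid sigma factors SIGE and SIGA and the phytochrome-interacting factor PIF3 (log2 fold changes of 1.11, 0.94 and 1.69), and SIGF was lower. None of the 3 root-type redox partners passed.

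flg22 left every member short of the test. None of the 40 members tested was higher or lower than mock at an adjusted p under 0.05, and DESeq2 called none. At an unadjusted p under 0.05 none passed either, where 3192 of all 18230 genes tested did. Over all 18230 genes tested 2.54% were higher and 1.14% lower, and 0.823% and 0.0329% had in addition a change of 1 or more on the log2 scale. The members' log2 fold changes ranged from -0.17 to 1.0 with a median of 0.18, beside -0.01 for all genes.

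The flg22 replicates lay far apart. CAB2 (AT1G29920) stood at 4.51, 11.6 and 4.21 CPM in mock and at 27.0, 1.06 and 3.84 CPM in flg22, and CAB3 at 2.18, 4.62 and 3.74 CPM in mock and 17.9, 1.17 and 3.02 CPM in flg22. RBCS1B stood at 3.96, 9.28 and 0.116 CPM in flg22, so replicate C lay below all mock libraries and replicate B above them. CAB1 was measured at 75.0, 44.3 and 15.7 CPM in flg22 (log2 fold change 0.06 ± 0.65, SE), RCA at 60.3, 77.9 and 25.7 CPM (0.28 ± 0.44) and PSBR at 66.6, 69.1 and 48.5 CPM (0.14 ± 0.17).

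The remaining members of highest level gave LHCA4 at 42.9, 36.4 and 29.9 CPM (log2 fold change 0.16 ± 0.14, SE), LHCB4.1 at 26.5, 25.5 and 17.9 CPM (0.14 ± 0.15), PSAK at 21.3, 20.9 and 14.8 CPM (0.11 ± 0.20) and DRT112 at 23.1, 23.6 and 9.42 CPM (0.19 ± 0.41), with adjusted p-values of 0.633 to 0.868. The median biological coefficient of variation of the members was 30.5% in this comparison and 11.1% for all genes, which limits what these replicates can show. The median log2 fold change was -0.14 without flg22 A and 0.40 without flg22 C, and the members' share of all counts was 0.0629% ± 0.0257 (SD, n = 3), against 0.0573% ± 0.00964 in mock. The summed shoot markers ranged from 14.7 to 34.4 CPM in flg22, and CA1 stood at 13.8, 6.23 and 0.93 CPM. PDF1, an epidermal gene and the only shoot marker called in flg22, was lower at 9.35 ± 1.45 CPM against 16.1 ± 3.17 CPM in mock (SD, n = 3, adjusted p = 0.035). None of the 56 genes tested in the other pathway lists passed in flg22.

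**Figure D4:**
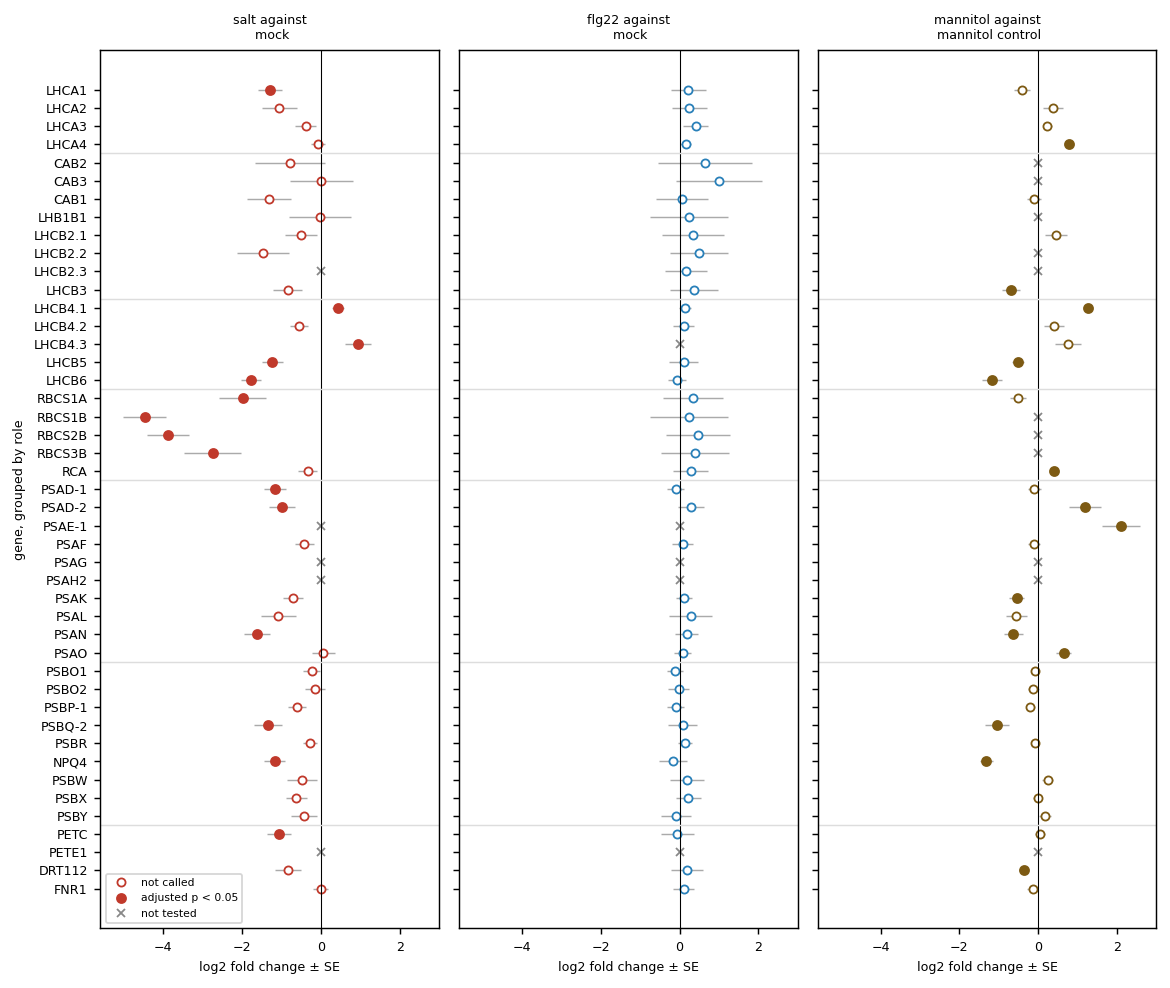
Log2 fold change with its standard error for 45 members in each treatment comparison, with filled points for an adjusted p under 0.05, open points for genes tested and not called, and crosses at 0 for genes not tested. Salt has 13 filled points below 0 and 2 above, flg22 has none, and mannitol has 8 below and 6 above.

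Mannitol raised some members and lowered others. Against the mannitol control, 6 of 34 members tested were higher and 8 lower, where 26.0% of 18939 genes were higher and 26.0% lower, so the members' shares lay at or below those of all genes. Among changes of 1 or more on the log2 scale, 3 members were higher and 3 lower, against 8.98% and 7.46% of all genes. Of the higher ones, PSAD-2 and PSAE-1 passed the count filter only through mannitol. The median log2 fold change was -0.09, beside -0.02 for all genes. The count of lower members was 4 without mannitol C, 5 without mannitol control A and 4 without mannitol control B. Upper-quartile normalization moved the split of all calls to 21.3% of genes higher and 33.0% lower.

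Of 5 minor antenna genes 1 was higher and 2 were lower in mannitol, and of 8 photosystem I genes 3 were higher and 2 lower. LHCB4.1 was measured at 25.9, 23.5 and 22.2 CPM in the mannitol control and 55.7, 64.9 and 49.5 CPM in mannitol, a log2 fold change of 1.26 ± 0.11 (SE, adjusted p = 3.79e-07). LHCA4 (AT3G47470), an antenna protein of the outer photosystem I belt, stood at 22.8, 23.8 and 22.1 CPM in the control and at 40.6, 42.0 and 34.8 CPM in mannitol, a log2 fold change of 0.79 ± 0.098 (SE, adjusted p = 1.42e-05). Both genes had groups wide apart, and both calls held in all 13 alternatives.

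PSAD-2 (AT1G03130) rose from 0.737, 1.10 and 0.536 CPM to 1.42, 1.37 and 2.60 CPM, a log2 fold change of 1.19 ± 0.41 (SE, adjusted p = 0.0246). Its call was lost in 4 of 12 alternatives, among them those without mannitol C, mannitol control A or mannitol control C (adjusted p = 0.161, 0.0694 and 0.0974). PSAE-1 (AT4G28750), a stromal subunit of photosystem I, rose from 3, 10 and 3 counts to 16, 26 and 15 counts, a log2 fold change of 2.10 ± 0.49 (SE, adjusted p = 0.0025). PSAD-2 and PSAE-1 both passed the count filter through the mannitol libraries, where they are high. Because PSAE-1 overlaps another annotated gene over 24.0% of its windows in libraries without strand, its source is uncertain. PSAO rose by a log2 fold change of 0.65 ± 0.19 (SE, adjusted p = 0.0116) and RCA from 47.5, 45.7 and 42.5 CPM to 63.8, 62.6 and 50.5 CPM, a log2 fold change of 0.40 ± 0.097 (SE, adjusted p = 0.00364). The RCA call was lost in 1 of 13 alternatives (adjusted p = 0.334).

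NPQ4 (AT1G44575) led the decreases, from 16.4, 16.9 and 14.4 CPM to 5.08, 8.02 and 5.69 CPM, and fell by 1.32 ± 0.17 on the log2 scale (SE, adjusted p = 1.65e-05). LHCB6 went from 5.65, 10.7 and 9.04 CPM to 3.35, 4.83 and 2.93 CPM and fell by 1.18 ± 0.26 (SE, adjusted p = 0.0016). The calls of NPQ4 and LHCB6 held in all 13 alternatives. PSBQ-2 (AT4G05180) went from 4.26, 4.55 and 5.59 CPM to 2.24, 3.55 and 1.22 CPM and fell by 1.04 ± 0.31 (SE, adjusted p = 0.0121). Its call was lost in 2 of 13 alternatives, among them that without mannitol control C (adjusted p = 0.0527). LHCB3 (AT5G54270), a further protein of LHCII trimers, went from 5.97, 6.55 and 4.14 CPM to 2.54, 4.19 and 3.41 CPM with overlapping groups and fell by 0.69 ± 0.24 (SE, adjusted p = 0.0279). That call was lost in 6 of 13 alternatives, with an adjusted p up to 0.283. Among them were those without mannitol A or C or without control A or B (adjusted p of 0.0616 to 0.119).

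Smaller decreases passed for PSAN, PSAK, LHCB5 and DRT112. PSAK went from 18.7, 19.9 and 13.9 CPM to 12.4, 14.8 and 8.78 CPM and fell by 0.54 ± 0.19 (SE, adjusted p = 0.0267). This call was lost in 5 of 13 alternatives, among them those without mannitol A or C or control A or B (adjusted p of 0.0575 to 0.108). DRT112 went from 21.1, 21.7 and 19.8 CPM to 16.8, 15.7 and 15.5 CPM and fell by 0.37 ± 0.11 (SE, adjusted p = 0.00959). Its call was lost in 1 of 13 alternatives (adjusted p = 0.357). Other members of high level did not pass: CAB1 at 15, 23.9 and 16.0 CPM in the control and 15.2, 20.6 and 14.7 CPM in mannitol (log2 fold change -0.11 ± 0.18, adjusted p = 0.648) and PSBR at 87.4, 81.3 and 83.8 CPM and 87.8, 84.8 and 64.7 CPM (-0.08 ± 0.10, adjusted p = 0.559).

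The LHCII gene LHB1B1 was under the count minimum in this comparison and was not tested. It had no count in any mannitol control library and 7, 11 and 7 counts in mannitol A, B and C, a share at least 9.22-fold higher, taken against a floor of 3 counts over the group. RBCS1B, RBCS2B, RBCS3B, CAB2, CAB3, LHCB2.2, LHCB2.3, PSAG, PSAH2 and PETE1 were under the minimum as well. RBCS1B had no count in any of the 6 libraries of the experiment. The members' share of all counts was 0.0564% ± 0.00345 in the control and 0.0528% ± 0.00567 in mannitol (SD, n = 3). The summed root markers fell from 12100 to 13100 CPM in the control libraries to 6610 to 7620 CPM in mannitol, and the shoot markers stood at 54.5 to 64.5 and 51.6 to 70.6 CPM. CER1, the only shoot marker called, rose from 4.89 ± 0.601 to 19.5 ± 3.59 CPM (SD, n = 3, adjusted p = 3.51e-07). The part of root and shoot markers in the members' values was not tested.

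The wider pathway also moved in both directions in mannitol. Its lists together had 18.9% of 53 genes tested higher and 22.6% lower, beside 26.0% of all genes each way. In chlorophyll synthesis 5 of 11 genes tested were lower, led by CRD1 at a log2 fold change of -0.71 ± 0.13 (SE, adjusted p = 0.000487), and 2 were higher, with HEMA1 at 0.86 ± 0.085 (adjusted p = 1.57e-06). In the Calvin-Benson cycle 2 of 12 were higher, with the linker protein CP12-1 at 1.10 ± 0.092 (SE, adjusted p = 3.2e-07), and 1 was lower, SBPASE at -0.88 ± 0.21 (adjusted p = 0.00285). In photorespiration 3 of 7 were higher and 2 lower, with GLDP1 at 0.73 ± 0.075 and GOX2 at -0.87 ± 0.13. Among the regulators SIGA and PIF3 were higher (0.75 ± 0.11 and 1.19 ± 0.21, SE) and SIGF lower. Of the root-type redox partners RFNR2 fell by 0.79 ± 0.068 and FD3 by 0.19 ± 0.07 (SE, adjusted p = 3.86e-07 and 0.0386).

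Salt and mannitol were also compared with each other, each relative to its own control. An interaction term over 12 libraries was past an adjusted p of 0.05 for 5 of 41 members, all with the salt response below the mannitol response, where 8.00% of 19363 genes differed in that direction and 11.5% in the other. The 41 include RBCS1B, RBCS2B, RBCS3B, LHB1B1, CAB2, CAB3 and LHCB2.2, which had 0 to 14 counts over the 3 mannitol control libraries and for which the term says little. Of the 5, PSAD-2 was lower in salt and higher in mannitol, with a difference of -2.18 ± 0.53 on the log2 scale (SE, adjusted p = 0.00864). LHCA4 and LHCB4.1, which rose in mannitol, differed by -0.87 ± 0.19 and -0.83 ± 0.18 (SE, adjusted p = 0.00454 and 0.00508). PSAD-1 and PETC, which fell in salt, differed by -1.08 ± 0.31 and -1.13 ± 0.33 (SE, adjusted p = 0.0218 and 0.0234).

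In 30 of the 33 members tested in both comparisons the salt value lay below the mannitol value. On the interaction term 37 of 41 members lay in that direction, those with few counts included, beside 9314 of 19363 genes. LHCB5, LHCB6, PSAN, PSBQ-2 and NPQ4 were lower in both, and LHCB4.1 was higher in both. RBCS1B had no counts in the mannitol experiment, and its 2 responses could not be compared. The count of differing members was 12 without salt A, 3 without mock C and 3 without mannitol control C. Medium and treatment cannot be told apart in this contrast, since the imaging methods give salt in liquid medium and mannitol on plates.

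**Figure D5:**
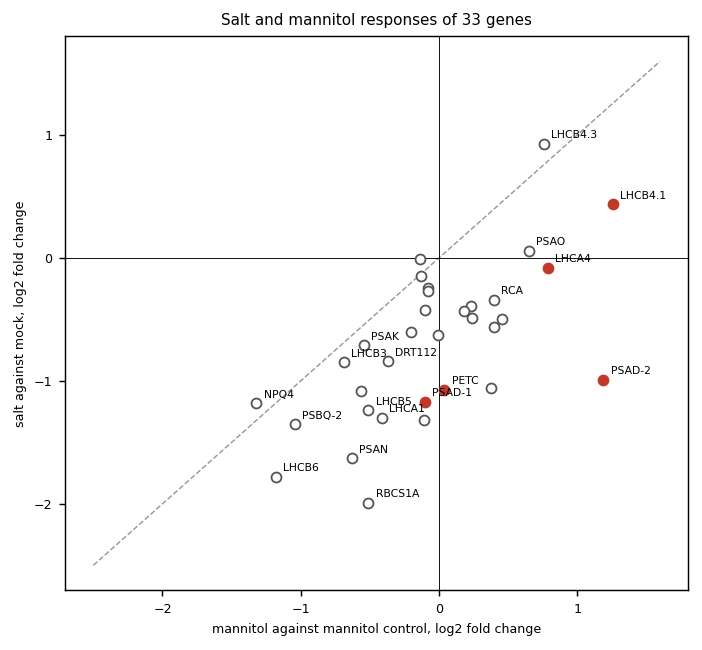
Log2 fold change in salt (vertical axis) against that in mannitol (horizontal axis) for 33 members tested in both, with the dashed line of equal change. Filled points are the 5 members whose responses differed at an adjusted p under 0.05, all below the line, and names are given for members called in at least 1 of the comparisons.

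The untreated groups differed in which photosynthesis genes they expressed. The mannitol control and mock took nearly the same share of counts, 0.0564% ± 0.00345 and 0.0573% ± 0.00964 (SD, n = 3), yet 14 of 40 members were lower in the mannitol control and 8 were higher, where 21.6% of 18927 genes were lower and 20.9% higher. Of the 14, 7 had 0 to 14 counts over the 3 mannitol control libraries and passed the count filter through mock, and with at least 10 counts required in every library 6 members were lower. Among changes of 1 or more on the log2 scale, 12 were lower and 3 higher, against 6.79% and 6.60% of all genes. This comparison was not a treatment: medium, experiment and growth cannot be told apart in it.

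Of the 14 lower members, 6 were LHCII genes and 3 Rubisco genes, near copies among them. RBCS1B had 97 counts in mock and none in 38384196 counts of the mannitol control, at least 50.9-fold lower against a floor of 3 counts over the group, and LHB1B1 had 119 and none, at least 62.4-fold lower. RBCS2B had 127 and 1 counts, a 200-fold lower share with an exact 95% counting interval of 35.2 to 7950, and CAB2 had 158 and 5 counts, 49.7-fold lower with an interval of 20.9 to 155. RBCS3B, CAB3 and LHCB2.2 were 37.0, 12.1 and 22-fold lower by pooled counts. RBCS1A was measured in both groups, with 885 counts in mock and 1090 in the mannitol control and a log2 fold change of -0.35 ± 0.25 (SE, adjusted p = 0.32). CAB1 had a log2 fold change of -1.22 ± 0.36 (SE, adjusted p = 0.0468). The median log2 fold change of all members was -0.24, and 0.05 without the near copies. The set left out as near copies was CAB1, CAB2, CAB3, LHB1B1, RBCS1A, RBCS1B, RBCS2B and RBCS3B. All of these but RBCS1A were called lower, so leaving them out raises the median. LHCB2.1 and LHCB2.2, which also share windows, were kept.

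Of the 8 higher members, 5 were photosystem II genes, 2 electron transport genes and 1 a minor antenna gene. FNR1 had a log2 fold change of 1.24 ± 0.15 (SE, adjusted p = 6.28e-05), NPQ4 of 1.16 ± 0.16 (adjusted p = 0.000136), PSBR of 0.61 ± 0.10 (adjusted p = 0.000804) and PETC of 0.72 ± 0.24 (adjusted p = 0.0423). PSBW, PSBY, PSBO2 and LHCB4.3 passed as well. The count of higher members was 5 without mock A, 4 without mannitol control A and 5 without mannitol control C. Of the shoot markers, PDF1 and KNAT1 were higher in the mannitol control (log2 fold changes of 1.29 and 1.09), and CA1 was lower, at 0.023 ± 0.0398 CPM against 4.85 ± 2.72 CPM in mock (SD, n = 3). The part of these markers in the members' values was not tested.

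The sequence upstream of the members was read from the same assembly, since light-regulated promoters are known for the G-box (CACGTG) and the I-box (GATAAG, searched on both strands). In the 250 bases before the annotated start, 7 of 45 members (15.6%) held a G-box and 14 (31.1%) an I-box, where 7.0% and 12.3% of 23447 genes did. The ACGT core of the G-box was found in 42.2% of members and 44.6% of all genes, and the evening element AAATATCT in no member and 4.8% of all genes. A match is a description and does not show that a factor binds. A few windows are shown with both motifs in capitals on the strand of the gene, for the strongly lowered Rubisco genes RBCS2B (chr5:15382072-15382321, minus strand) and RBCS1B (chr5:15385321-15385570, minus), for PSBQ-2 (chr4:2673244-2673493, minus), lower in salt and mannitol, and for LHCB4.1 (chr5:208616-208865, plus) and LHCA4 (chr3:17495034-17495283, minus), which rose in mannitol.
RBCS2B: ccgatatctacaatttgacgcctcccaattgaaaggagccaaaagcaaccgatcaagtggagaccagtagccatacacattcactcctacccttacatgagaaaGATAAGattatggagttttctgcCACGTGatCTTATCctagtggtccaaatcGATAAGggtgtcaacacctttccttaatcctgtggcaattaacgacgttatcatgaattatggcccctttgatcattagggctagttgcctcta
RBCS1B: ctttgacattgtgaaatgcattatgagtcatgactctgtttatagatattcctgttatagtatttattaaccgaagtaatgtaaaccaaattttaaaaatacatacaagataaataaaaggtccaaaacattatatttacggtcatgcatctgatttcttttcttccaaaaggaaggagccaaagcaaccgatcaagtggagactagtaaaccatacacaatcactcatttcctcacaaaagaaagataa
PSBQ-2: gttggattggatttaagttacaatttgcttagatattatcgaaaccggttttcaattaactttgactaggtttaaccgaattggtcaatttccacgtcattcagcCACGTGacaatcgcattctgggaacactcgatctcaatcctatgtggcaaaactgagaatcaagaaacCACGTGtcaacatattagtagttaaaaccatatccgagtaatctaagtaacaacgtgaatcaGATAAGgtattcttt
LHCB4.1: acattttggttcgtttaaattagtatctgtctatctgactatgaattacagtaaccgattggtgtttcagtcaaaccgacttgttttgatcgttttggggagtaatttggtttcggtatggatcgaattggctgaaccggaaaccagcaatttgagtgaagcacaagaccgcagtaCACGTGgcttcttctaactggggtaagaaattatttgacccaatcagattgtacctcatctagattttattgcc
LHCA4: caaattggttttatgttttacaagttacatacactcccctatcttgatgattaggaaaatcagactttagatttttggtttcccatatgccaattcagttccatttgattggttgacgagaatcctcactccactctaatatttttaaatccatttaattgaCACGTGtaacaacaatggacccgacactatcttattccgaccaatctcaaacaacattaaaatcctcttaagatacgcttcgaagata
The RBCS2B window holds 1 G-box and 3 I-boxes and the RBCS1B window none of either. These windows do not cover matching sequence. That of RBCS1B ends in a stretch resembling the one just before the first I-box of RBCS2B. The annotated transcripts are 1894 bases long in RBCS1B and 935 in RBCS2B. RBCS1B was not searched past its annotated start, so whether the genes differ in these motifs cannot be told. PSBQ-2, which fell, holds 2 G-boxes and 1 I-box, and LHCB4.1 and LHCA4, which rose in mannitol, hold 1 G-box each. Members with the motif thus moved in either direction in these libraries.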

How the data were processed

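Counts of reads per gene of 15 RNA-seq libraries were analysed. The deposited table holds raw counts per gene: per the methods, the authors sequenced nonstranded polyadenylated libraries as paired ends and used the Araport11 annotation, and the submitters' processing notes name Trimmomatic, Picard and HTSeq. Removal of duplicates before counting can lower highly expressed genes most. Replicates of 1 group differed by more than sampling noise, so each was kept.

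Differences were tested with edgeR 4.0.16 (R 4.3.3, limma 3.58.1) by the quasi-likelihood test with robust fits, TMM factors and filterByExpr with a minimum count of 10, with Benjamini-Hochberg adjustment over all genes and a threshold of 0.05. Salt and flg22 were compared with mock, mannitol with the mannitol control, the mannitol control with mock, and the salt and mannitol responses by an interaction over 12 libraries. A log2 fold change of at least 1 was a second condition. Fits were tested on simulated data. The members' share of counts is described with no p, since the members and lists were chosen with earlier results of these data known. Alternatives were other normalizations, filters, DESeq2 1.42.0, a replicate block, 1 fit of 15 libraries, no near copies and leaving out each library. Values in every library are given for the 4 called members with the largest change in each direction per treatment and the highest member of each role. Other called members are named with fewer values, and LHCB6, CAB2 and CAB3 were added after their values were seen. Other called genes are named from among those with the smallest adjusted p per list and direction, and not every one of these is named. Coordinates and sequences are from RefSeq, TAIR10.1.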

Additional observations from a re-analysis of the deposited data

Results flagged for a closer look

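For 5 members the response to salt and the response to mannitol differed by the interaction test over 12 libraries (edgeR, Benjamini-Hochberg over all genes tested). The difference, salt response minus mannitol response on the log2 scale, was -0.87 ± 0.19 for LHCA4 (SE, adjusted p = 0.00454), -0.83 ± 0.18 for LHCB4.1 (0.00508), -2.18 ± 0.53 for PSAD-2 (0.00864), -1.08 ± 0.31 for PSAD-1 (0.0218) and -1.13 ± 0.33 for PETC (0.0234). LHCB4.1 was called higher in both treatments, so its difference is one of size. Medium, experiment and treatment cannot be told apart in these differences.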

How the results depend on the processing

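Single genes were rerun for the 4 most changed called members in each direction per treatment and the highest member of each role, and none of those called changed direction. Values that were not called changed sign under at least 1 alternative for LHCA4 in salt, for CAB1, RCA, PSAK and DRT112 in flg22 and for CAB1 and PSBR in mannitol. The flg22 median (0.18) was -0.14 without flg22 replicate A. In salt, the count of higher members (2) was 0 with upper-quartile normalization, 1 with no filter on low counts, 1 with at least 10 counts in every library, 0 with DESeq2, 1 with all 15 libraries in 1 fit, 0 with the fold condition and 0 to 1 with a library left out. The 13 lower members became 21 with upper-quartile normalization and 9 to 19 with a library left out. In mannitol, the 6 higher members became 3 with the fold condition and 5 to 7 with a library left out, and the 8 lower members became 2 with all 15 libraries in 1 fit, 3 with the fold condition and 4 to 10 with a library left out. In the mannitol control against mock, the 8 higher members became 5 with all 15 libraries, 3 with the fold condition and 4 to 9 with a library left out, and the 14 lower became 6 with at least 10 counts in every library. The 5 members that differed between salt and mannitol became 3 with the fold condition and 3 to 12 with a library left out. For flg22 the counts were 0 in every setting. The median in mannitol (-0.09) was -0.19 with upper-quartile normalization. Without near copies the mannitol control's median (-0.24) was 0.05 and its log2 ratio of shares (-0.02) was 0.18. Upper-quartile normalization moved the share of higher calls among all calls from 53.6% to 37.3% in salt, from 69.1% to 53.9% in flg22 and from 50.0% to 39.2% in mannitol. Over all genes tested, same-letter replicates of the groups compared did not deviate together (r of -0.237 to 0.086), so the letter does not pair those groups. Salt and flg22 were not set against each other in this way, and the members' share fell from A to C in both. A replicate block gave 0 higher and 11 lower members in salt, 9 lower in mannitol and 5 that differed between salt and mannitol. Among the single genes' alternatives 351 stayed on their side of the threshold, 49 lost a call and 10 gained one, and the cause was not tested. Depth limits members with few counts. PSAG, PETE1, LHCB2.3, PSAH2 and PSAE-1 had at most 7, 11, 18, 19 and 26 counts in a library, and RBCS1B and RBCS2B had counts in 8 and 9 libraries.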
